A study of Mus musculus with 3 samples.

Results

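Clu-high epithelial cells are the barcodes that passed the limits for a cell (at least 500 genes, at least 1000 unique molecular identifiers, UMIs, and at most 20% mitochondrial UMIs), held at least 2 UMIs of *Epcam*, the epithelial adhesion molecule, none of the leukocyte gene *Ptprc* or the macrophage gene *C1qa*, and were chosen by carrying at least 5 UMIs of *Clu*, the gene of the secreted chaperone clusterin. There were 73 such cells among 14387 deposited barcodes, 5528 of which passed the cell limits and 2706 of which were epithelial by the same rule without its *Clu* limit. The library labelled KO held 72 of the 73, the library labelled control held 1 and the library labelled rescue held 0. *Clu* chose these cells, so their *Clu* level is a description and not a finding. They were compared with the epithelial cells of the same library that had 0 UMIs of *Clu* (Clu-zero cells: 486 in control, 1126 in KO and 715 in rescue). That set has no limit on *C1qa*, which 10, 12 and 9 of its cells held.

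*Clu* and *Anxa1*, which encodes the membrane-binding protein annexin A1, are known from regenerating mouse intestine, where rare *Clu*-expressing crypt cells appear after loss of the *Lgr5*-expressing stem cells and depend on YAP, the transcriptional co-activator that the Hippo pathway restrains. CDC42 is a small GTPase that organises the apical side of epithelial cells. YAP and its relative TAZ (*Wwtr1*) act through TEAD transcription factors.

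Crypts came from the small intestine of C57BL/6 mice aged 2-3 months, and 10x Genomics 3' version 3 libraries were made from the dissociated cells, with 1 library per genotype. All 3 genotypes carried Olfm4-IRES-eGFPCreERT2, an inducible Cre recombinase expressed from the stem cell gene *Olfm4*. In addition the control was CDC42+/flox, the KO was CDC42flox/flox, and the rescue was CDC42flox/flox; Yapflox/flox; Tazflox/+. The labels do not give an induction schedule, the number of mice per library or which cells had recombined, so a value belongs to a library and no difference between genotypes could be tested. Intervals are exact 95% intervals that cover counting error only. The series title names the question of how CDC42 acts on stem and transit amplifying cells through YAP and EGF signalling.

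The mitochondrial limit removed 66.3%, 54.1% and 38.3% of the control, KO and rescue barcodes. Epithelial cells had a median of 33810, 41325 and 45897 UMIs in control, KO and rescue. *Cdc42* was at 248, 383 and 383 counts per 1e+06 UMIs (CPM) in the epithelium of the 3 libraries, so it was not lower in the libraries labelled KO and rescue. Whether the counted 3' ends lie in the floxed part was not tested, so control, KO and rescue stand below for the libraries labelled so. *Wwtr1* was at 7.40, 13.3 and 2.92 CPM and *Yap1* at 26.6, 24.5 and 20.3 CPM. The libraries shared 3 to 11 barcodes in pairs, none of them a Clu-high cell.

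Clu-high cells made up 4.85% (3.82 to 6.07) of KO epithelial cells, 72 of 1484, and 4.72% without 2 cells rich in the fibroblast gene *Dcn* (decorin). In control the share was 0.198% (0.00501 to 1.10), 1 of 505, and in rescue it was 0 of 717, which allows a share of up to 0.513%. Any *Clu* UMI was found in 24.9% of KO, 5.74% of control and 1.53% of rescue epithelial cells. Summed over all epithelial cells, *Clu* was at 42.7 CPM (41.0 to 44.4) in KO, 2.56 CPM (1.88 to 3.40) in control and 0.333 CPM (0.177 to 0.569) in rescue. The 72 cells held 80.7% of the KO epithelial *Clu* UMIs, so the remaining cells carried a low level that the limit of 5 UMIs leaves out.

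Rescue epithelial cells were the deepest of the 3 libraries at the median. With counts drawn down to 10000 UMIs in every cell (95 control, 289 KO and 80 rescue cells were too shallow), at least 1 *Clu* UMI remained in 12.8% of KO, 1.95% of control and 0% of rescue cells. At 2000 UMIs per cell the shares were 4.47%, 0.853% and 0.142%. Immune cells, which should lack *Clu*, served as the background: a *Clu* UMI was present in 2 of 125 KO immune cells, 0 of 366 in control and 0 of 472 in rescue, at median depths of 4885, 4956 and 4804 UMIs. Thinned to 2000 UMIs, 0 of 118 KO immune cells kept one, which allows a share of up to 3.08%. The KO epithelial share at 2000 UMIs was above that limit. These immune cells were chosen as holding *Ptprc* and no *Epcam*. That choice can leave out barcodes with stray epithelial RNA, so they set no upper level for stray *Clu*.

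**Figure D1:**
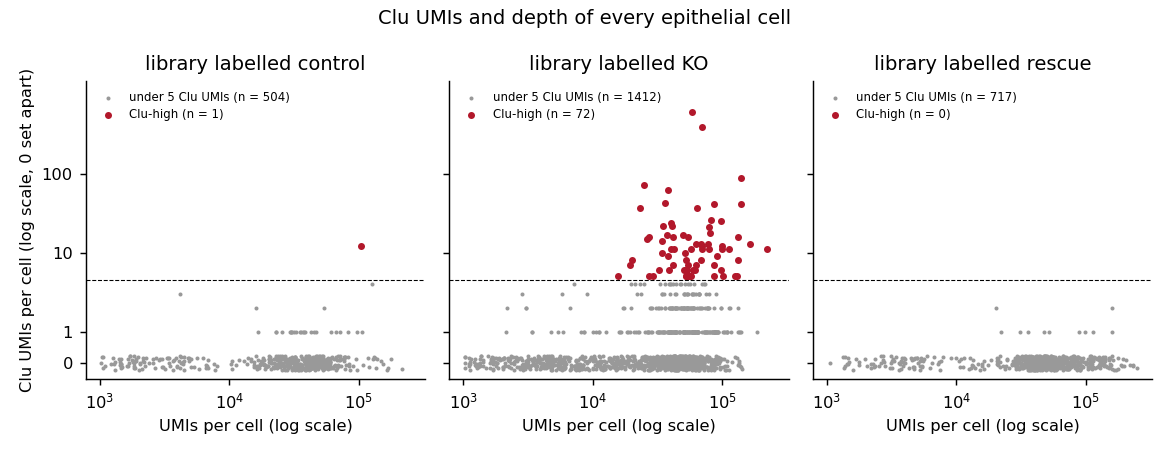
UMIs of *Clu* in each epithelial cell (y axis, log scale with 0 drawn apart and spread for visibility) against the UMIs of that cell (x axis, log scale), 1 panel per library, with Clu-high cells in red above the dashed limit. The KO panel holds 72 red points reaching 599 UMIs, the control panel 1 and the rescue panel none, over the same range of depth.

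Within KO the 72 cells carried 5 UMIs of *Clu* at the lowest, 11 at the median and 599 at the highest. A cell with 599 UMIs and a cell with 387 UMIs together held 47.6% of the 2071 *Clu* UMIs of the group, and the next cell held 88. Most cells were far lower: 29 held 5 to 8 UMIs and 16 held over 20. Just outside the limit stood 21 cells with 4 UMIs (median depth 41416 UMIs, 5 of them with *Anxa1*), and just inside it 12 cells with 5 UMIs (median depth 55275 UMIs, 4 of them with *Anxa1*). The group is thus a range cut from a continuous level. The limit is a number of UMIs, and Clu-high cells were deeper, with 15522 UMIs at the lowest, 56210 at the median and 220258 at the highest, against a median of 38207.5 in Clu-zero cells. Their mitochondrial share was close to that of Clu-zero cells, at medians of 9.06% and 9.65%. *Epcam* ran from 8 to 466 UMIs with a median of 141.5.

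*Anxa1*, the marker paired with *Clu* in the working name of these cells, was unevenly spread among them. It was detected in 32 of the 72 cells (44.4%, 32.7 to 56.6), with at least 5 UMIs in 17 and none in 40. The highest cell had 304 UMIs of *Anxa1*, and that cell and the next, with 252, held 65.2% of the 853 in the group. The median Clu-high cell therefore had no *Anxa1*. In Clu-zero cells of at least 10000 UMIs, *Anxa1* was found in 21.2% (18.5 to 24.1) and reached 50 UMIs. At 10000 UMIs per cell the shares were 23.6% of Clu-high and 9.74% of Clu-zero cells. Conversely, of the 74 KO epithelial cells with at least 5 *Anxa1* UMIs only 17 were Clu-high. Summed over all epithelial cells, *Anxa1* had 1922 UMIs in KO, 0 in control and 5 in rescue.

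*Ly6a*, which encodes the surface protein Sca-1 and is a known marker of fetal-like repair epithelium, was detected in 33 Clu-high cells, with 60 UMIs in the highest. *Anxa1* and *Ly6a* were present together in 18 cells and both absent from 25. The stem cell gene *Lgr5* was at 0 UMIs in all 72 cells, and *Olfm4* was found in 3 of them. *Mki67*, a marker of dividing cells, had at least 5 UMIs in 15, and 13 of those 15 also had *Anxa1*. On these markers the cells were not 1 type, and they are called Clu-high cells here.

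**Figure D2:**
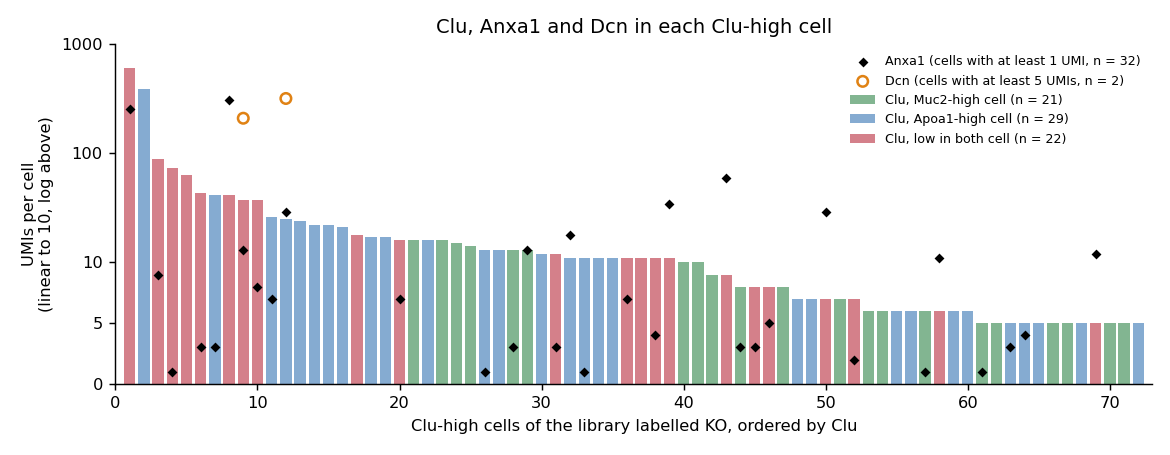
UMIs per cell (y axis, linear to 10 and log above) of *Clu* (bars), *Anxa1* (black diamonds, 32 cells with at least 1 UMI) and *Dcn* (orange circles, 2 cells with at least 5 UMIs) in each of the 72 Clu-high cells of KO, ordered by *Clu* along the x axis. Bar colours give the 3 classes set by *Muc2* and *Apoa1*, and the diamonds follow the red bars (low in both genes) more than the order of *Clu*.

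*Clu* (ENSMUSG00000022037) lies at chr14:65968483-65981547 on the plus strand and *Anxa1* (ENSMUSG00000024659) at chr19:20373428-20390944 on the minus strand in GENCODE vM21. Since YAP acts through TEAD factors, the 250 bases before the start of the RefSeq model of *Anxa1* are shown (GRCm38.p6, chr19:20390672-20390921, minus strand), with the letters of a TEAD motif in capitals. The RefSeq model starts inside the longer GENCODE gene, so the window lies within the GENCODE coordinates of *Anxa1*:
Anxa1: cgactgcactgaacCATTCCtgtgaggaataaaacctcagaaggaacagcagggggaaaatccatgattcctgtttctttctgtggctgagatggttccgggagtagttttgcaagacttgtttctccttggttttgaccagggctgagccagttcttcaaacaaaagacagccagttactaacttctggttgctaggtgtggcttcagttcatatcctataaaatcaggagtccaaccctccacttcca
GGAATG was searched on both strands and matched once, 236 bases before the RefSeq start. The AP-1 letters TGANTCA, also searched on both strands, matched 0 times. Of 32851 promoter windows of that length, 12.6% hold the TEAD letters and 6.75% the AP-1 letters, so such a match is frequent, and it describes letters only.

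The Clu-high cells were divided by a goblet and an enterocyte gene, and several barcodes were high in both. A division made after the values were seen placed 21 cells at 500 CPM or more of *Muc2*, the gel-forming mucin of goblet cells (Muc2-high), 29 of the others at 1000 CPM or more of *Apoa1*, an apolipoprotein of absorptive enterocytes (Apoa1-high), and left 22 low in both. Median *Muc2* over cells was 8560, 14.4 and 15.1 CPM in these classes and median *Apoa1* was 462, 9445 and 162 CPM. *Fabp1*, an enterocyte fatty acid binding protein that did not set the classes, had medians of 269, 10264 and 243 CPM. Within 2-fold of the limits lay 0 Clu-high cells for *Muc2* and 3 for *Apoa1*. The *Muc2* limit was applied first, and several Muc2-high cells also passed the *Apoa1* limit. Among them were a cell with 610 *Apoa1* UMIs of 53215 and a cell with 1227 of 129386. The latter was marked as a possible doublet by comparison with simulated doublets. Whether the barcodes past both limits each held 1 cell was not tested.

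The classes differed in size from those of Clu-zero cells with at least 10000 UMIs. Muc2-high cells were 29.2% of Clu-high and 9.04% of Clu-zero cells, Apoa1-high cells 40.3% and 68.0%, and cells low in both 30.6% and 23.0%. Read the other way among KO cells of at least 10000 UMIs, 14.4% (9.13 to 21.1) of 146 Muc2-high cells were Clu-high, 3.71% (2.50 to 5.28) of 782 Apoa1-high cells and 8.24% (5.24 to 12.2) of 267 cells low in both. The Muc2-high cells were not the deepest, at a median of 34328.5 UMIs against 50086 and 44847 in the other classes. Each KO class held a larger share of Clu-high cells than the control epithelium of at least 10000 UMIs, where it was 1 of 410.

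Median *Clu* was 8, 11 and 11.5 UMIs in the Muc2-high, Apoa1-high and low in both classes, or 190, 173 and 175 CPM. All 16 cells with over 20 UMIs were outside the Muc2-high class, which reached 16. *Anxa1* was present in 5 of 21 Muc2-high, 8 of 29 Apoa1-high and 19 of 22 cells low in both, with 21, 66 and 766 UMIs in all. *Ly6a* had another distribution, with 15, 7 and 11 cells and 212, 23 and 88 UMIs. The cell with the most *Clu*, low in both, also carried 252 UMIs of *Anxa1*, 446 of the gastric peptide gene *Tff1*, 547 of *Ly6d*, 245 of *Krt7* and 121 of the claudin gene *Cldn18*. It was among 6 of the 72 Clu-high cells marked as possible doublets by a simulated-doublet score, against 13 of the 1126 Clu-zero cells of KO. Of the 6, 4 were Muc2-high. The cell with 387 *Clu* UMIs was Apoa1-high, with 0 UMIs of *Anxa1*, 241 of *Ly6d* and 188 of the brush border phosphatase *Alpi*.

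**Figure D3:**
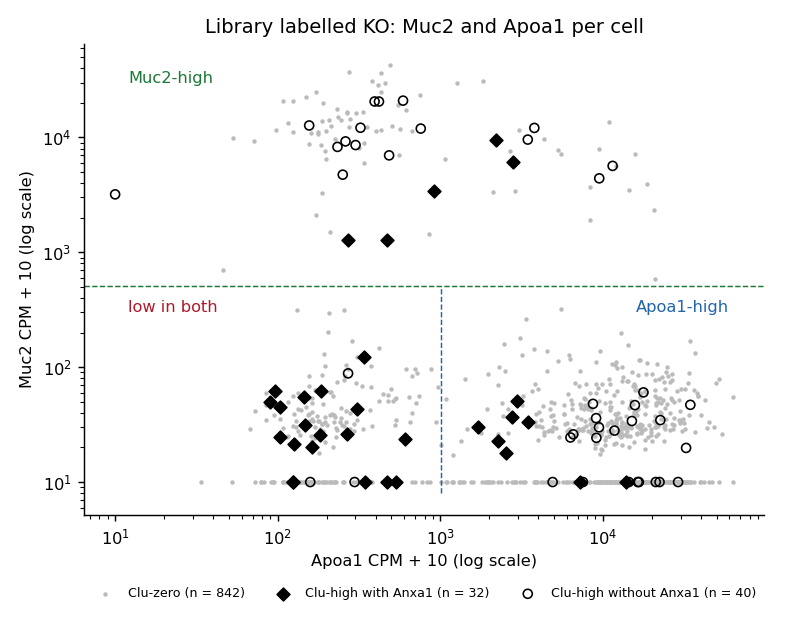
*Muc2* (y axis) against *Apoa1* (x axis), as CPM plus 10 on log scales, in KO epithelial cells of at least 10000 UMIs without *C1qa*, with 842 Clu-zero cells in grey, Clu-high cells with *Anxa1* as 32 filled diamonds and those without as 40 open circles. Dashed lines are the class limits (500 CPM of *Muc2*, 1000 CPM of *Apoa1*); most diamonds lie in the lower left, where both genes are low, and most open circles in the other fields.

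*Lyz1* (lysozyme) and *Mmp7*, which mark the defensin-secreting Paneth cells of the crypt base, were found together with *Muc2*. At least 5 UMIs of *Lyz1* were present in 16 Muc2-high cells and in 0 cells of the other classes, and at least 5 UMIs of the matrix protease gene *Mmp7* in 12 and 0. The Paneth list as a whole was not higher: inside the Muc2-high class, against Clu-zero cells of that class, 0 of 8 measured genes were past 2-fold higher and 4 lower (median -1.70), with *Lyz1* at 1744 and 2881 CPM. Over all cells the list had 3 of 8 higher and 2 lower (median 0.11), and with classes weighted 0 and 4 (median -1.53). At least 5 UMIs of *Mki67* occurred in 14 cells low in both, 1 Muc2-high cell and 0 Apoa1-high cells. Any *Mki67* UMI was found in 17 of the 22 cells low in both, against 3 and 2 in the other classes.

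Gene by gene, UMIs were summed over the 72 Clu-high and the 1126 Clu-zero cells of KO, and 11671 genes with at least 20 UMIs in either group were compared. Genes past 2-fold, on the log2 scale with 1 CPM added, numbered 310 higher in Clu-high cells (2.66%) and 117 lower (1.00%). The median log2 ratio of all genes was 0.10. With each cell given the same weight the split was 277 higher and 288 lower, and scaled to a median ratio of 1 it was 250 and 184. Many of the differences rested on few cells: of the 310 genes, 70 had the majority of their UMIs in 1 cell, 42 were found in under 5 cells, and 123 in at least 20. These counts describe chosen cells of 1 library and carry no test.

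The 5 highest named genes came largely from 2 cells. *Slpi*, *Dcn*, *Saa3*, *Sparc* and *C3*, among them the matrix genes *Dcn* (decorin) and *Sparc*, were high in cells with 209 and 317 UMIs of *Dcn* and 37 and 25 of *Clu*, while 0 Clu-zero cells had 5 or more *Dcn* UMIs. *Slpi* was at 381 CPM against 0.569 CPM with 99.5% of its UMIs in 1 cell, and without the 2 cells its ratio was 0.754. All 5 stromal markers were past 2-fold higher with these cells (median log2 ratio 5.21), and none was measured without them. Without them 259 genes were higher (2.22%) and 130 lower (1.12%). The ratio of *Cck* went from 0.00804 to 0.00471, and the other named ratios were close to those with them, as the plot of named genes shows.

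Next came genes of gastric and repair epithelium. *Tff1* was at 421 CPM in Clu-high and 18.2 CPM in Clu-zero cells, a ratio of 23.1 (21.3 to 25.2). It was found in 21 of the 72 cells, from 0 to 678 UMIs with a median of 0. *Wfdc18*, a small secreted whey acidic protein family gene, was at 90.0 and 4.85 CPM, a ratio of 18.6 (15.6 to 22.1), in 27 cells. *Ly6a* was at 67.6 and 6.14 CPM, a ratio of 11 (9.31 to 13), and *Anxa1* at 179 and 16.2 CPM, also 11 (9.92 to 12.2). Without its highest cell *Anxa1* had a ratio of 7.29, and without the cells marked as possible doublets 8.48. For all 4 genes the typical Clu-high cell was at 0 UMIs, and a minority of cells carried the level.

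*Sprr1a*, a small proline-rich protein of stressed and cornifying epithelium, was at 368 and 51.3 CPM, a ratio of 7.18 (6.73 to 7.65), in 30 cells. *Sptssb*, *S100a14* and *Basp1* were found in more cells. *Sptssb*, a subunit of the enzyme that starts sphingolipid synthesis, was at 101 and 17.1 CPM (5.92, 5.25 to 6.66) in 51 cells. *S100a14* was at 163 and 51.4 CPM (3.18, 2.92 to 3.45) in 60 cells, and *Basp1* at 73.9 and 23.8 CPM (3.1, 2.74 to 3.51) in 45. *Nupr1*, a stress-response gene, was at 199 and 51.8 CPM and *Mmp7* at 56.1 and 15.6 CPM, ratios of 3.83 and 3.6, in 33 and 19 cells.

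The ratios were smaller against Clu-zero cells of the same class make-up. For this, Clu-zero cells of at least 10000 UMIs were weighted to give each class its share of the UMIs of the Clu-high cells. In this comparison 163 genes were higher (1.41%) and 145 lower (1.25%), and 146 of the 310 were still past 2-fold. *Nupr1* then had a ratio of 1.27 and *Mmp7* of 1.16, so these 2 were near the level of Clu-zero cells of the same classes. *Tff1* had 8.37, *Sprr1a* 3.03, *Ly6a* 7.06, *Anxa1* 9.01, *Wfdc18* 13.1, *Sptssb* 3.65, *S100a14* 2.11 and *Basp1* 2.62.

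**Figure D4:**
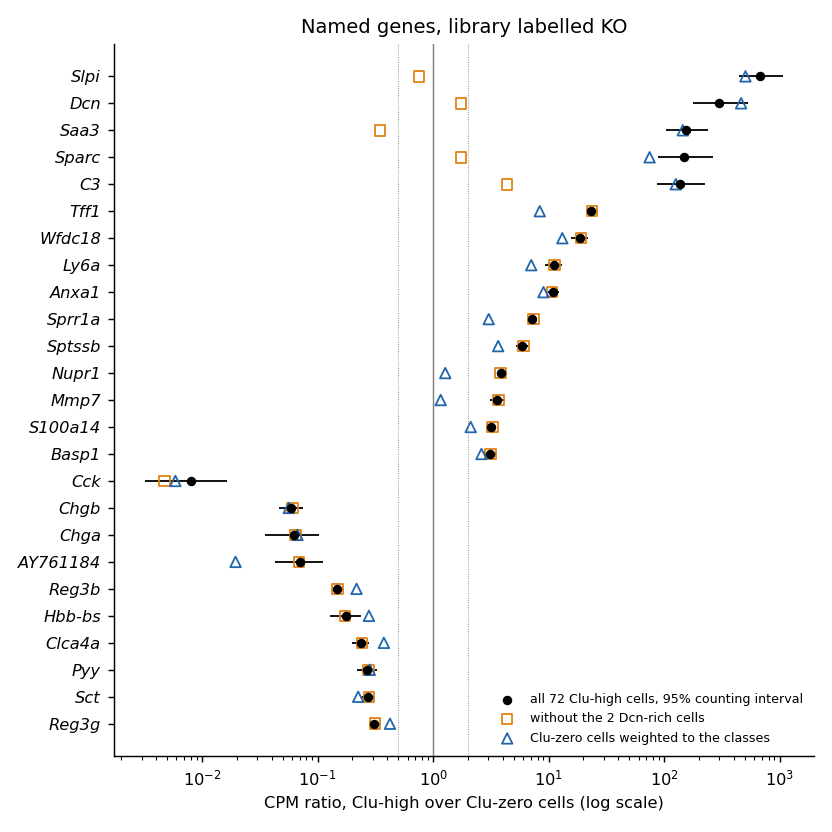
Ratio of CPM in Clu-high over Clu-zero cells of KO (x axis, log scale) for the 15 highest and 10 lowest named genes (y axis), for all 72 cells with counting intervals (black), without the 2 *Dcn*-rich cells (orange squares) and with Clu-zero cells weighted to the classes (blue triangles). The top 5 genes fall to 4.34 or below without the 2 cells, and *Nupr1* and *Mmp7* come close to 1 after weighting.

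The revival and fetal-like injury list (28 genes, 26 measured) had 9 genes past 2-fold higher and 0 lower, with a median log2 ratio of 0.65 against 0.10 for all genes. After class weighting 7 were past 2-fold and the median was 0.59. Beside *Anxa1*, *Ly6a* and *Basp1* the higher genes included *Msln*, *F3*, *Il1rn*, *Krt7* and *Il33*. *Krt7*, a keratin of simple ductal epithelium, was at 570 and 241 CPM (2.37, 2.27 to 2.47) and was found in 68 of the 72. At the other end *Cd55* was at 76.2 and 100 CPM and *Tm4sf4* at 2404 and 3293 CPM, ratios of 0.759 and 0.730. Gastric-type genes had 6 of 9 measured past 2-fold higher, 0 lower and a median of 2.40 (2.29 weighted). *Psca*, a stomach and bladder surface antigen gene, was at 20.7 and 0.668 CPM, *Tff2* at 13.6 and 0.445 CPM in 3 cells, and *Gkn3*, a gastrokine, at 11.5 CPM in both groups.

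Goblet genes were past 2-fold higher in 8 of 13 (median 1.07) and lower in 0, but with classes weighted the median was -0.50. The sign of the list therefore depended on the classes of the cells compared. Enterocyte genes were past 2-fold lower in 4 of 19 (median -0.80) and in 0 after weighting (-0.21), among them *Apoa4*, at 2755 and 7556 CPM, and *Fabp1*, while *Slc2a2* and *Vil1* were between. Inflammation genes had 7 of 15 past 2-fold higher (median 0.59), and 4 of 14 (0.44) without the *Dcn*-rich cells. They included *Ccl2* at 14.2 and 0.198 CPM in 3 cells, *Tnf* at 13.4 and 3.34 CPM in 17 cells and the chemokine gene *Ccl20* at 46.5 and 12.8 CPM in 21 cells. Of the 222 *Ccl20* UMIs 152 were in 1 cell, and only 5 cells held at least 5. *Cxcl10*, an interferon-induced chemokine, was at 7.74 and 8.74 CPM, and interferon-induced genes had 2 of 16 higher and 5 lower (median -0.34), or 0 of 15 and 5 without the *Dcn*-rich cells. *Isg15* was at 9.42 and 42.6 CPM.

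Lower in Clu-high cells were above all hormone genes. Of 16 enteroendocrine genes measured 11 were past 2-fold lower and 0 higher, with a median of -1.89 (-2.21 weighted). *Cck* (cholecystokinin) was at 1.46 and 182 CPM, *Chgb* (secretogranin 1) at 15.1 and 254 CPM, *Chga* at 3.14 and 50.2 CPM, *Pyy* at 21.1 and 78.3 CPM and *Sct* (secretin) at 62.6 and 229 CPM. The remaining named genes on this side were the defensin gene *AY761184* at 3.98 and 56.2 CPM, the haemoglobin gene *Hbb-bs* at 9.42 and 53.6 CPM and *Clca4a* at 31.6 and 134 CPM. The Clu-zero cells include enteroendocrine cells, and without enteroendocrine and tuft cells in either group the median of the list was 0.13. *Reg3b*, a secreted antimicrobial lectin, was at 337 and 2292 CPM, 6.80-fold lower (6.47 to 7.15), and *Reg3g* at 166 and 541 CPM. The median cell had 48.0 CPM of *Reg3b* among Clu-high and 55.9 CPM among Clu-zero cells of at least 10000 UMIs, while the highest cells had 6701 and 88090 CPM. The difference in *Reg3b* thus lay in the upper tail, and not in the typical cell.

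Markers of cells outside the epithelium differed by list. Of the T cell list 0 of 4 measured genes were past 2-fold in either direction, with summed levels of 9.21 and 10.1 CPM in Clu-high and Clu-zero cells. Macrophage and dendritic genes summed to 6.91 and 14 CPM, and endothelial genes, at 1.67 and 0.371 CPM, were too rare to be measured. Haemoglobin genes, which mark red blood cells, were past 2-fold lower in 4 of 4, at 12.8 and 67.7 CPM in sum. Against class-weighted Clu-zero cells, at 43.4 CPM in sum, 2 of the 4 were past 2-fold lower and 2 were between. Mast cell genes summed to 18.6 and 37.2 CPM, but to 1.77 CPM in class-weighted Clu-zero cells, against which 2 of 2 measured genes were past 2-fold higher (median 2.00). Of these mast cell protease genes, *Mcpt2* was at 16.5 and 12.1 CPM, found in 18 of the 72 cells, and *Mcpt1* at 2.09 and 24.6 CPM. In sum the list was at 24.6 and 2.89 CPM in the Apoa1-high class and at 23.8 and 1.45 CPM in the class low in both. The part of such RNA in the other ratios was not tested.

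The genes named in the genotypes were close in the 2 groups. *Cdc42* was at 370 and 385 CPM (ratio 0.959), *Yap1* at 25.1 and 25.2 CPM (0.997), and *Wwtr1* had a ratio of 1.07. Of 14 measured YAP and TAZ targets, *Myof* and *F3* were past 2-fold higher and 0 were lower, with a median of -0.11 (0.12 weighted). The classical target *Ctgf* was at 0.837 and 2.43 CPM and *Cyr61* at 19.5 and 13.3 CPM. The list stood below the median of all genes (0.10) without weighting and above that of the weighted comparison (0.00). In the class low in both, 2 of 12 measured targets were past 2-fold higher and 0 lower, with 9 of 12 above a ratio of 1 and a median of 0.58 against -0.05 for all genes, whereas the medians were 0.10 and -0.08 in the Muc2-high and Apoa1-high classes (0.18 and -0.04 for all genes). Of 11 measured EGF ligands and receptors 0 were past 2-fold (median 0.11). *Areg* (amphiregulin) was at 610 and 500 CPM, *Egfr* had a ratio of 0.964, *Erbb2* of 1.15, *Erbb3* of 1.07, *Hbegf* of 0.982, *Ereg* of 1.28, *Btc* of 1.20 and *Tgfa* of 1.08.

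Stem cell genes had 0 of 16 past 2-fold higher and 1 lower (median 0.05). *Olfm4*, from which Cre was expressed, was the lower one, with 5 UMIs in Clu-high and 274 in Clu-zero cells, and *Lgr5* had 0 and 22 UMIs, so the fold of *Lgr5* cannot be read at this depth. *Ascl2* had a ratio of 1.02. Genes of the G2 and M phases had a median of 0.72 with *Top2a* past 2-fold higher, and 0.07 after class weighting. *Mki67* was at 73.2 and 40.1 CPM, a ratio of 1.83 that was 1.11 weighted. Genes of S phase had 0 of 20 past 2-fold in either direction, with a median of 0.38 that was -0.25 weighted, when 1 of 20 was above a ratio of 1. In the class low in both their median was -0.46, with 0 of 20 above 1.

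Comparing Clu-high with Clu-zero cells inside each class, without the 2 *Dcn*-rich cells and with Clu-zero cells of at least 10000 UMIs, gave 3 different sets of genes. In the Muc2-high class (21 against 77 cells) 214 of 6969 genes were past 2-fold higher (3.07%) and 118 lower (1.69%). *Ly6a* was at 191 and 26 CPM, a ratio of 7.34 (5.55 to 9.81), and *Tff1* at 1310 and 206 CPM. *Tff1* was found in 8 of the 21 Clu-high cells, with a median of 0, and 2 cells held 678 and 441 of its 1455 UMIs. At 10000 UMIs per cell *Ly6a* was seen in 57.1% of Clu-high and 10.5% of Clu-zero cells of this class, whereas *Anxa1* was seen in 4.76% and 7.89%. *Sprr1a* was seen in 57.1% and 59.2% of them, and its level was 1261 and 479 CPM, a ratio of 2.63 (2.44 to 2.85) that was 1.60 without its highest cell. Inflammation genes had 6 of 11 past 2-fold higher (median 1.31), and the revival list had 2 of 23 (median 0.41).

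In the Apoa1-high class (28 against 579 cells) only 92 of 10211 genes were higher (0.901%) and 338 lower (3.31%). *Sptssb* was at 107 and 13.8 CPM (7.73, 6.47 to 9.22) and *Fxyd3*, a regulator of the sodium pump, at 129 and 27.8 CPM (4.66, 4 to 5.40) in 25 of 28 cells. The antibacterial protein gene *Pglyrp1* was at 275 and 109 CPM in all 28. *Fabp1*, at 10581 and 14745 CPM, and *Apoa4*, at 5553 and 10396 CPM (0.534), were not past 2-fold; the class was set by the enterocyte gene *Apoa1*, so enterocyte RNA in it was fixed by that choice. The revival list had 3 of 24 higher and 1 lower (median 0.10), and *Anxa1* was at 20.7 and 10.3 CPM, with a UMI in 10.7% and 7.30% of thinned cells.

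In the class low in both (21 against 196 cells) 253 of 10196 genes were higher (2.48%) and 412 lower (4.04%), and here the revival list had 19 of 24 past 2-fold higher and 0 lower (median 1.57). *Anxa1* was at 428 and 35.2 CPM, a ratio of 12.2 (10.6 to 13.9) that was 7.87 without its highest cell, with a UMI in 18 of 21 cells. After thinning it was seen in 52.4% of Clu-high and 17.8% of Clu-zero cells. *S100a6*, a calcium-binding protein of repair epithelium, was at 5010 and 1357 CPM in all 21 cells, and *Krt7* at 698 and 256 CPM. Gastric-type genes had 8 of 9 higher (median 4.01), but *Tff1* had 92.5% of its UMIs in 1 cell and *Cldn18* 73.8%. *Mki67* was at 182 and 163 CPM (1.12, 0.986 to 1.26), an interval that includes 1. Of 14 enteroendocrine genes all were past 2-fold lower. The class is what the limits left over, so its Clu-zero cells were not limited to a single cell type. Its Clu-high cells were also deeper, at medians of 69718 and 42239 UMIs. The part of both in the revival count was not tested. Differences between the classes were not tested.

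**Figure D5:**
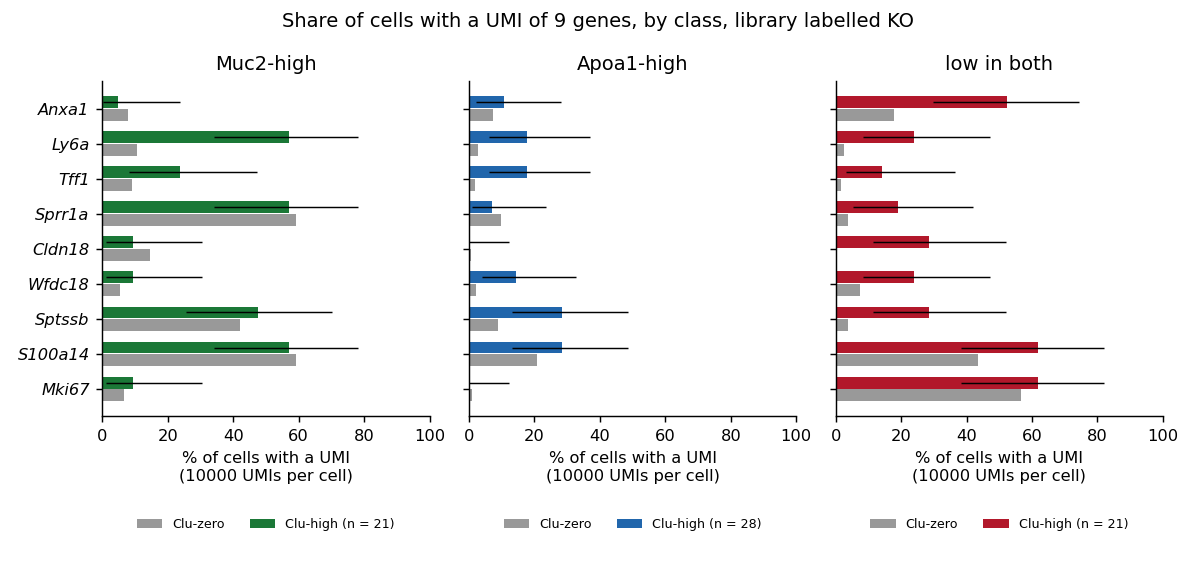
Percent of cells with at least 1 UMI of 9 genes after thinning to 10000 UMIs per cell (x axis), in Clu-high cells (coloured, with exact 95% intervals) and Clu-zero cells (grey) of the Muc2-high, Apoa1-high and low in both classes of KO, without the 2 *Dcn*-rich cells. *Ly6a* separates the pair most in the Muc2-high panel (57.1% against 10.5%) and *Anxa1* in the low in both panel (52.4% against 17.8%).

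Cells were also ordered by *Clu* over the whole KO epithelium of at least 10000 UMIs: 842 cells with 0 UMIs, 281 with 1 to 4, 33 with 5 to 10 and 39 with over 10. *Anxa1* was at 15.9, 27.8, 67.0 and 258 CPM along this order, the last value being 167 CPM without the 2 cells of highest *Clu* and the 2 *Dcn*-rich cells. *Sptssb* was at 16.9, 27.3, 66.5 and 125 CPM, *S100a14* at 51.0, 67.3, 128 and 188 CPM and *Krt7* at 238, 294, 472 and 639 CPM. These 4 genes were therefore already above the Clu-zero level in cells below the limit, and higher at each step. *Ly6a* did not keep this order, at 6.04, 11.9, 84.7 and 55.5 CPM, nor did *Muc2*, at 695, 1230, 3160 and 671 CPM. *Reg3b* was lower at each step, at 2339, 1360, 393 and 297 CPM. *Cdc42* was at 389, 384, 383 and 360 CPM.

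Several of these genes were also higher in the Clu-zero cells of KO than in those of the other libraries. *S100a6* was at 56.5, 4512 and 87.8 CPM in Clu-zero cells of control, KO and rescue, *Tm4sf4* at 137, 3293 and 45.8 CPM and *Ly6d* at 0.0582, 104 and 0.281 CPM. *Anxa1* was at 0, 16.2 and 0.128 CPM, *Sptssb* at 0.0582, 17.1 and 2.26 CPM, and *Basp1* at 0.291, 23.8 and 0.308 CPM. Pooled cells without *Clu* thus also differed between the libraries in these genes. Their make-up differed too: Apoa1-high cells were 25.1%, 66.1% and 27.0% of them in control, KO and rescue. Cells low in both were 57.4%, 20.7% and 66.4%, and the Paneth list summed to 76802, 972 and 13417 CPM. The part of make-up in the levels given here was not tested. A difference in level cannot be told apart from any other difference between single libraries. Other genes with a higher level in Clu-high cells did not have KO far above both other libraries. *Ly6a* was at 0.874, 6.14 and 5.13 CPM and *Wfdc18* at 0.582, 4.85 and 3.18 CPM, with KO and rescue close, while *Nupr1*, at 369, 51.8 and 30.03 CPM, and *Mmp7*, at 348, 15.6 and 84.1 CPM, were highest in control. *C3* was highest in rescue, at 0.116, 0.495 and 1.10 CPM. *Reg3b* was highest in rescue, at 508, 2292 and 13378 CPM.

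The single Clu-high cell of control was Muc2-high by the limit above, with 638 CPM of *Muc2*. It held more UMIs of the Paneth genes given here than any Clu-high cell of KO. It had 103426 UMIs, 12 of *Clu* and 0 of *Anxa1*, and carried 33690 UMIs of the defensin gene *Defa24*, 2457 of the lectin gene *Itln1* and 1851 of *Lyz1*. The 6 Paneth markers made up 37.4% of its UMIs against 7.60% in control Clu-zero cells. Against those cells its highest named genes were *Gdf15*, *Cxcl10*, *Bambi*, *Ramp1* and *Lbh*, and its lowest *Fabp1*, *Zg16*, *Fabp2*, *Prap1* and *Apoa4*. *Gdf15*, a stress-induced secreted factor, had 54 UMIs, or 522 CPM against 16.9 CPM. In KO Clu-high cells *Defa24* was at 313 CPM against 611 CPM in Clu-zero cells. Most of these Clu-high UMIs came from a single Muc2-high cell, which held 1244 of *Defa24*, 69 of *Itln1* and 170 of *Lyz1*. Another Muc2-high cell of KO held 224 of *Itln1* and 314 of *Lyz1*.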

How the data were processed

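The authors deposited 1 UMI count matrix per library (10x Genomics 3' version 3 chemistry). Cell Ranger made them, in version 3.0.2 (control, KO) or 3.1.0 (rescue) per the file headers and 1.3.0 per the submitters' processing notes. Their genome build: not given in the sources used here. UMIs were summed over cells and given as CPM. Ratios had conditional exact binomial intervals, levels exact Poisson intervals and shares exact Clopper-Pearson intervals, all covering counting error only. Genes needed 20 UMIs in 1 of 2 groups, and 1 CPM was added on the log2 scale. Ratios and intervals were tested on simulated data. Doublet scores used 2 simulated doublets for each cell, and the highest were marked at 0.8% per 1000 cells and kept. Python 3.11.15, numpy 2.4.6 and scipy 1.17.1 were used.

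In KO the 15 highest and 10 lowest ratios among genes of at least 50 CPM with an interval excluding 1 were named, without mitochondrial, ribosomal, sex-linked, *Defa* and *Gm* genes and the genes of the rule. For the control cell the 5 highest and 5 lowest at 100 CPM were named, and of a list its 2 highest and 2 lowest members. Targeted, stem cell and EGF pathway genes were always named. A gene that the list rule names is not reported here. Genes named within the classes, by level of *Clu* and for single cells were chosen after their values were seen. Cells, lists and rules were chosen with earlier results of these data known. There is 1 library per genotype, so no p-value was computed.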

Additional observations from a re-analysis of the deposited data

Results flagged for a closer look

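A signal outside the cells described above came from barcodes that failed the mitochondrial limit and otherwise met the rule. In KO 14 of 1420 such barcodes (0.986%, 0.540 to 1.65) held at least 5 *Clu* UMIs. In control 0 of 2167 did, which allows up to 0.170%, and in rescue 0 of 682, which allows up to 0.539%. Of the 14, 4 held *Anxa1* and 1 held at least 5 *Dcn* UMIs. Their median depth was 26106 UMIs.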

How the results depend on the processing

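Over the alternatives 88 of 119 values of the main results stayed close to the reported one, 29 moved and 2 changed sign. The KO share was 8.22% at a *Clu* limit of 3 UMIs and 2.76% at 10. Genes higher numbered 137 with 5 CPM added and 163 with classes weighted. Genes lower numbered 77 and 266 at *Clu* limits of 3 and 10, 285 at a mitochondrial limit of 10%, 288 with each cell weighted the same, 184 scaled to the median and 39 with 5 CPM added. The revival median was 0.41 at a *Clu* limit of 10 and 0.97 at 10% mitochondrial UMIs. The enterocyte median was -0.51 and -1.03 at *Clu* limits of 3 and 10, and -0.21 weighted. The goblet median was 1.37 and 0.45 at those limits, 1.36 at 10% mitochondrial UMIs, 1.23 in cells of 10000 UMIs, 0.82 with each cell the same, 0.96 scaled to the median, 0.91 without doublets, 0.98 without enteroendocrine and tuft cells, 1.10 without the *Dcn*-rich cells and 1.10 without the 2 cells of highest *Clu*, and it reversed to -0.50 with classes weighted. The enteroendocrine median was -2.86 with each cell the same, -2.54 at 50 UMIs per gene, -1.32 with 5 CPM added and reversed to 0.13 without enteroendocrine and tuft cells, by construction of that alternative. The gastric-type median was 1.49 with 5 CPM added. Ratios of *Slpi* (0.754) and *Saa3* (0.347) reversed without the *Dcn*-rich cells, and those of *Pyy* (5.82) and *Sct* (1.22) without enteroendocrine and tuft cells. The cause of the other shifts was not tested. Alternatives on *Dcn*, the highest *Clu* cells and classes were chosen after seeing the data. No paired analysis was possible because each genotype has 1 library. Clu-high cells were not compared between libraries because control held 1 and rescue 0. At these depths a gene of 20 UMIs has a wide interval, and 0 of 717 rescue cells allows a share of up to 0.513%.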

Other observations

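*Dcn*-rich barcodes with *Clu* also stood outside the epithelium. Among KO barcodes with under 2 *Epcam* UMIs and no *Ptprc* or *C1qa*, 8 of 181 held at least 5 *Clu* UMIs, and all 8 carried *Anxa1* and 123 to 295 UMIs of *Dcn*, a gene of fibroblasts. In rescue 1 of 258 such barcodes did, with 75 UMIs of *Dcn* and with *Anxa1*, and in control 0 of 97. The 2 *Dcn*-rich cells among the 72, at 209 and 317 UMIs of *Dcn*, lay in and just above this range. Among KO barcodes with *Ptprc*, 3 of 339 held at least 5 *Clu* UMIs.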
